A study of Mus musculus with 3 samples.

Results

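The genes described here are Prmt5, Prmt7, Prmt6, Carm1 and Wdr5, which encode 4 protein arginine methyltransferases and a protein that binds the tail of histone H3. They were chosen by name as 5 of the 49997 genes in the RefSeq table used for gene names, and each was read in a window of the mm9 genome set by hand around the gene. The windows are chr14:55115001-55145000 for Prmt5, chr8:108725001-108780000 for Prmt7, chr3:110040001-110060000 for Prmt6, chr9:21345001-21400000 for Carm1 and chr2:27360001-27395000 for Wdr5. A stretch inside the Prmt7 window, chr8:108760001-108762000, was included because its H3R2me2s signal was already known to be high and its H3K4me3 signal low. Its values are therefore a description. The rule names the genes and states no value of theirs apart from that stretch, but it was set with earlier results of these data known.

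Chromatin immunoprecipitation with sequencing (ChIP-seq) was done on 1 cell population, a culture of RAG2-/- Abelson-transformed pro-B cells labelled as strain C57BL/7. Such cells stand at an early stage of the B lineage and divide without end after transformation by the Abelson virus. Without RAG2, a subunit of the V(D)J recombinase, they cannot rearrange their antigen receptor genes. The 3 libraries differ by antibody: histone H3 with symmetrically dimethylated arginine 2 (H3R2me2s), that modification combined with trimethylated lysine 4 (H3R2me2sK4me3, the combined mark in what follows), and H3K4me3 alone. The antibodies to H3R2me2s and to the combined mark were raised in the submitting laboratory, and the one to H3K4me3 was bought from Abcam. Whether each binds its mark alone was not tested here. All 3 libraries came from the same kind of cell with no treatment, and no input library was used here.

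Each antibody had 1 library, so no test between antibodies was made and no difference has a replicate check. The libraries held 6923765, 7128852 and 13898471 mapped reads in the order H3R2me2s, combined mark, H3K4me3. Intervals are exact 95% intervals (Poisson for reads and levels, Clopper-Pearson for ratios) and reflect counting error alone. The reads carry no molecular identifiers, so PCR copies of 1 molecule cannot be told from separate molecules. A level is given as a multiple of the library's own background, which was 2.35, 1.86 and 2.98 reads per 1 kb bin, and so is a level per length. A ratio between marks is a ratio of CPM values, that is of reads scaled by the library's total. Antibodies were not calibrated against each other, so a ratio is not a share of marked histones.

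Arginine methyltransferases add methyl groups to arginine side chains in 2 geometries. Prmt5 and Prmt7 have been reported to place H3R2me2s, with both nitrogens of the side chain methylated. Prmt6 places both groups on the same nitrogen of the same arginine, the asymmetric form H3R2me2a, which is known to oppose H3K4me3. Carm1 (also called Prmt4) also makes asymmetric dimethylarginine and is best known for arginines further along the H3 tail. Wdr5 is a core subunit of the MLL and SET1 complexes that methylate lysine 4, and it binds the start of the H3 tail through arginine 2. H3K4me3 marks the starts of active genes and many CpG-rich promoters.

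RefSeq promoter sequences (build GRCm38.p6, the 250 bases before the annotated start) were found for 4 of the 5 genes. No entry was matched for Carm1. They are given for the genes of both enzymes linked to the symmetric mark, since they differ in CpG content and in the motifs they hold. Whether the regions described next overlap these sequences was not analysed here, since the regions are in mm9. Capitals mark exact matches to GGGCGG or CCAAT on either strand.

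Prmt5, chromosome 14, minus strand: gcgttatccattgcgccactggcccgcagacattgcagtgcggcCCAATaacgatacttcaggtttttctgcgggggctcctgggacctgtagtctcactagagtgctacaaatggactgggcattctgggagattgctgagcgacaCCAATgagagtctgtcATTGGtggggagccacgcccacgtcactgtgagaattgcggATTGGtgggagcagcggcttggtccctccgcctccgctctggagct

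Prmt7, chromosome 8, plus strand: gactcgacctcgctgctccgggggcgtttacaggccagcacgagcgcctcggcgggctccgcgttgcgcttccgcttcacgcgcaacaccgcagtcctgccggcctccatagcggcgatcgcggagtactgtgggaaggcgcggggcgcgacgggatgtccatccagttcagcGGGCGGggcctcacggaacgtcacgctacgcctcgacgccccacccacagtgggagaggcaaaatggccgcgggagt

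The Prmt7 promoter held 35 CpG dinucleotides at 70% GC. The other promoters held fewer, with 13 at 58% GC for Prmt5, 13 at 54% for Prmt6 and 12 at 54.4% for Wdr5. Over all 32851 promoters in the table the median was 6 CpG at 52.4% GC, and the upper quartile was 16 CpG. The Prmt5 sequence held 4 matches to CCAAT, which 33.8% of all promoters hold at least once, and the Prmt7 and Wdr5 sequences held 1 match each to GGGCGG, which 32.7% hold. None of the 4 promoters held CACGTG (in 6.02% of all promoters), and none held CCGGAA (in 12.03%). The same was true of TATAAA (in 12.4%) and of the NRF1 motif (in 0.782%), each searched on both strands. Prmt6 matched none of these motifs. These matches are letters in a window and say nothing of the factors.

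All 5 genes had a region of H3K4me3 in their window, and both arginine-2 signals were called in it. How many of the genome's H3K4me3 regions have both called was not computed, so this count is no finding about these genes. Of the 195 bins of 1 kb in the windows, 25 were enriched for H3K4me3, 22 for the combined mark and 18 for H3R2me2s. Over the genome, 2.45%, 1.45% and 1.23% of bins with a read were enriched for these marks in the same order. The windows were drawn around genes, so a higher share there is no finding about these genes. H3K4me3 was called in 14 of the 18 H3R2me2s bins, and the other 4 all lay in the Prmt7 window outside its main region. H3K4me3 was called in 18 of the 22 combined-mark bins. Of the other 4, 3 lay in the Prmt7 window outside the main region, and 1 lay inside the first Carm1 region, where 24 H3K4me3 reads fell just short of the limit of 25. Over the genome, 18406 of 19747 regions held an H3K4me3 bin. The share of arginine-2 bins with H3K4me3 over the genome was not computed, so these overlaps are no finding about these genes.

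**Figure D1:**
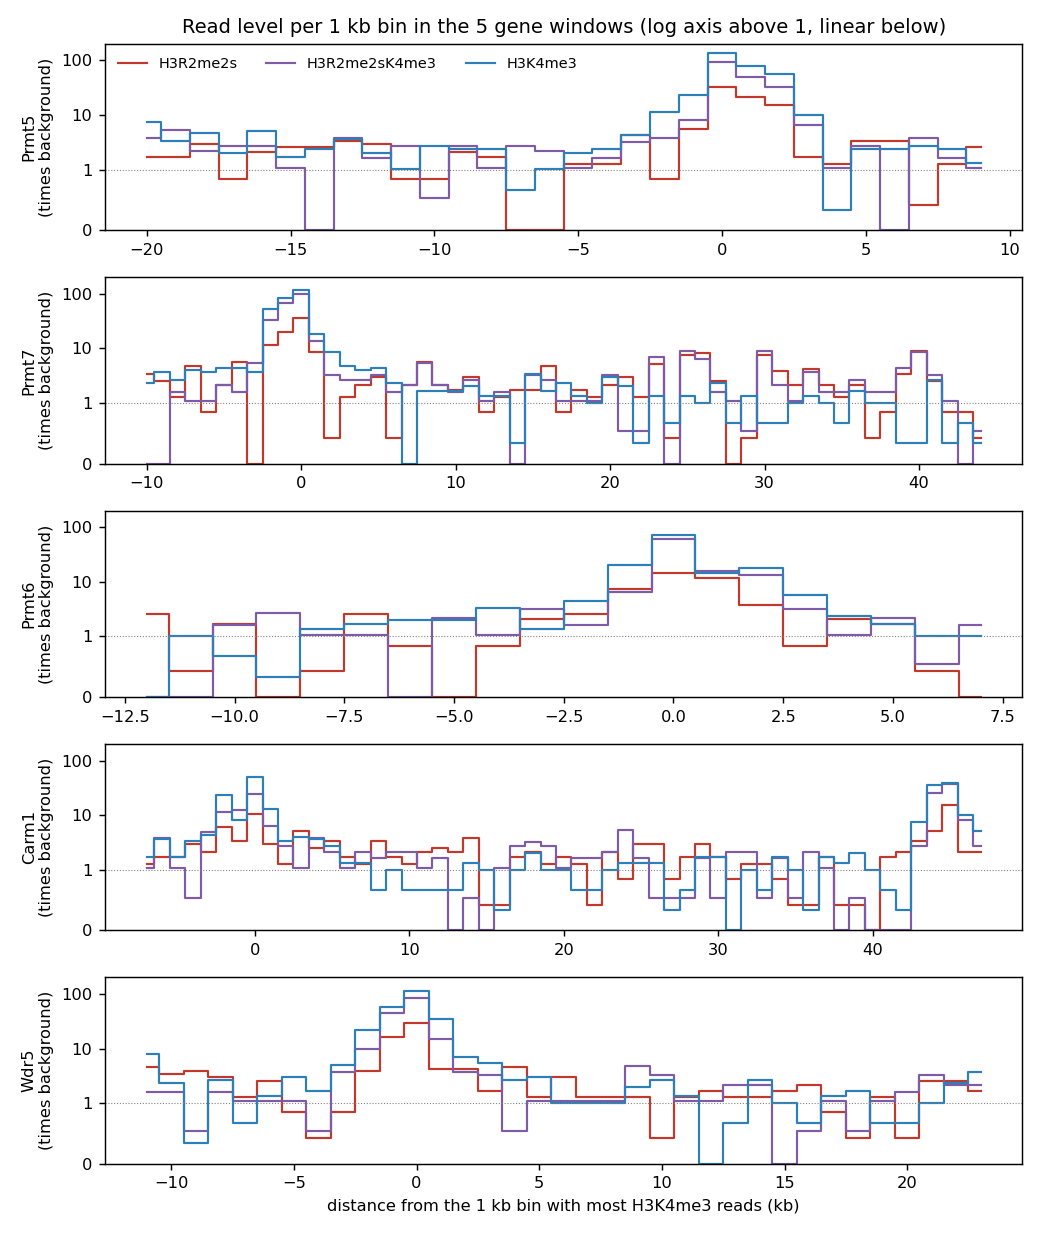
Level of each mark per 1 kb bin, as a multiple of the library's background, against the distance in kb from the bin with most H3K4me3 reads, for each of the 5 gene windows. The vertical axis is logarithmic above 1 and linear below; the dotted line is background, and the 3 colours are the 3 libraries. H3K4me3 was the highest of the 3 lines at the tallest bin of each main region, and in the Prmt7 window narrow rises of both arginine-2 lines stand over low H3K4me3.

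Prmt5, the main symmetric arginine methyltransferase of mammalian cells, had 1 region of 6 kb at chr14:55133001-55139000. It held 182 H3R2me2s reads (156.5 to 210.4), 364 combined-mark reads (327.6 to 403.4) and 934 H3K4me3 reads (875.1 to 995.9). The levels were 12.9 (11.1 to 14.9), 32.6 (29.3 to 36.1) and 52.3 (49.0 to 55.7) times background. All 6 bins were enriched for H3K4me3, and the 3 with most reads also for the other marks. The edges of the region carried H3K4me3 with few reads of H3R2me2s, as at chr14:55133001-55134000 with 2, 7 and 34 reads in the same order. In the RefSeq table the protein-coding neighbours of Prmt5 are Rem2 and Haus4.

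Prmt7 had its main region at chr8:108733001-108738000, 5 kb wide, with 181 H3R2me2s reads, 404 combined-mark reads and 833 H3K4me3 reads. The levels were 15.4 (13.2 to 17.8), 43.4 (39.3 to 47.9) and 55.9 (52.2 to 59.9) times background. The protein-coding neighbours of Prmt7 in the table are Slc7a6os and Smpd3, and the region was not assigned to a gene start.

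Prmt6, the enzyme of the asymmetric mark, had a weaker region of 4 kb at chr3:110051001-110055000. It held 88, 177 and 373 reads in the same order, or 9.34 (7.49 to 11.5), 23.8 (20.4 to 27.5) and 31.3 (28.2 to 34.7) times background. Read counts of the marks differed from bin to bin within it. At chr3:110052001-110053000 there were 34 reads of H3R2me2s and 215 of H3K4me3, a CPM ratio of 0.317 (0.214 to 0.457). In the next bin, chr3:110053001-110054000, there were 28 and 44 reads, a ratio of 1.28 (0.766 to 2.10), with intervals that did not overlap. The combined mark had 29 reads in that bin, also a ratio of 1.28 to H3K4me3 (0.775 to 2.10). In the bin before, its ratio was 1.01 (0.793 to 1.27), and these intervals overlapped. Across all 56039 bins enriched for H3K4me3, 95% had a ratio below 0.815 for H3R2me2s and below 1.14 for the combined mark. The bin at chr3:110053001-110054000 was picked out after its value was seen. Its H3R2me2s ratio was the highest among the 25 bins enriched for H3K4me3 in the windows. The intervals that did not overlap, and its place above the genome's 95% point, therefore draw on that choice. A single such bin among 25 is no finding about Prmt6.

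Carm1, a coactivator of transcription factors, had a pair of H3K4me3 regions in its window. The region with more H3K4me3 reads lay at chr9:21350001-21354000, toward the neighbour AB124611, and held 54, 102 and 278 reads in the same order. The other, at chr9:21396001-21399000 toward the neighbour Yipf2, held 53, 132 and 250. Which region belongs to which gene start was not analysed here, as no mm9 annotation was used. At the first region the levels were 5.73 (4.31 to 7.48), 13.7 (11.2 to 16.6) and 23.3 (20.7 to 26.2) times background, the lowest of the 5 main regions in every library. Only 1 of its 4 bins was enriched for H3R2me2s. The second region was higher per length, at 7.50, 23.6 and 28.0 times background.

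Wdr5, the reader and complex subunit, had 1 region of 4 kb at chr2:27369001-27373000. It held 126 H3R2me2s reads, 286 combined-mark reads and 675 H3K4me3 reads. The levels were 13.4 (11.1 to 15.9), 38.4 (34.1 to 43.1) and 56.7 (52.5 to 61.1) times background. The 2 central bins were enriched for all 3 marks, while the outer bins were enriched for H3K4me3 and the combined mark alone.

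Ordered by H3K4me3 level, the main regions ran from Wdr5 (56.7 times background) through Prmt7 (55.9) and Prmt5 (52.3) to Prmt6 (31.3) and the first Carm1 region (23.3). The intervals of the first 3 overlapped, and those of the last pair overlapped with no other main region. For the combined mark the order was Prmt7, Wdr5, Prmt5, Prmt6 and Carm1, and Prmt7 and Wdr5 overlapped, as did Wdr5 and Prmt5. For H3R2me2s it was Prmt7, Wdr5, Prmt5, Prmt6 and Carm1, at 15.4, 13.4, 12.9, 9.34 and 5.73 times background. There the intervals of the first 3 overlapped, and those of Wdr5 and Prmt5 overlapped with that of Prmt6. The upper bound for Carm1, 7.481, lay just under the lower bound for Prmt6, 7.494. The order among the first 3 was not stable, and it also turned at equal depth. Regions were called anew under each setting, so their widths can differ. At 8 times the mean, H3K4me3 stood at 67.9 times background at Prmt5 (63.5 to 72.6), 63.0 at Prmt7 and 52.7 at Wdr5 (48.8 to 56.8). With bins shifted by 500 bp, H3R2me2s was highest at Prmt5 (13.2), followed by Prmt7 (13.0), Prmt6 (11.9) and Wdr5 (11.4). The first Carm1 region was lowest for each mark under both settings.

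Set against all 18406 regions of the genome with an H3K4me3 bin, Prmt5 and Prmt7 were strong in total reads. Their H3K4me3 CPM of 67.2 and 59.9 exceeded that of 92.5% and 90.3% of regions, where the median was 14.6. Wdr5 at 48.6 CPM exceeded 84.9%, Prmt6 at 26.8 exceeded 65.6% and the first Carm1 region exceeded 57.4%. Their H3R2me2s CPM, from 7.80 at Carm1 to 26.3 at Prmt5, held about the same ranks, above 57.1% to 91.9% of regions.

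H3R2me2s relative to H3K4me3 was close to the genome's middle at all 5 genes. The CPM ratio was 0.391 at Prmt5 (0.332 to 0.459), 0.436 at Prmt7 (0.369 to 0.513), 0.474 at Prmt6 (0.371 to 0.599), 0.390 at Carm1 (0.286 to 0.523) and 0.375 at Wdr5 (0.307 to 0.454). All intervals overlapped. Summed over the 5 main regions it was 0.410 (0.375 to 0.446), with a median of 0.391 over genes, beside a median of 0.409 and quartiles of 0.350 and 0.491 over 18265 regions. All 5 values lay between those quartiles. Scaled to each library's background in place of its total, the summed ratio was 0.258, and over whole windows it was 0.684, so the number itself depends on the scaling and the span.

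The combined mark ran from the genome's middle to its upper part. Its CPM ratio to H3K4me3 was 0.715 at Carm1 (0.564 to 0.901), 0.760 at Prmt5 (0.671 to 0.859), 0.826 at Wdr5 (0.717 to 0.950), 0.925 at Prmt6 (0.769 to 1.11) and 0.946 at Prmt7 (0.838 to 1.07). The intervals of Carm1, Prmt5 and Wdr5 each overlapped with that of Prmt7, and the differences between genes were not tested. The genome's median was 0.713, with quartiles of 0.527 and 0.858, and Prmt6 and Prmt7 stood above the upper quartile. The second Carm1 region had a ratio of 1.03 (0.827 to 1.28), higher than in 96.7% of regions. These comparisons pooled regions of all strengths. Every main region, and the second Carm1 region, had more H3K4me3 than the genome's median of 14.6 CPM. Whether the ratio of the combined mark to H3K4me3 changes with a region's strength was not tested. A place in the upper part is therefore no finding about these genes. H3R2me2s to the combined mark was between 0.454 at Wdr5 and 0.545 at Carm1, all within the quartiles of 0.441 and 0.686 over the genome.

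**Figure D2:**
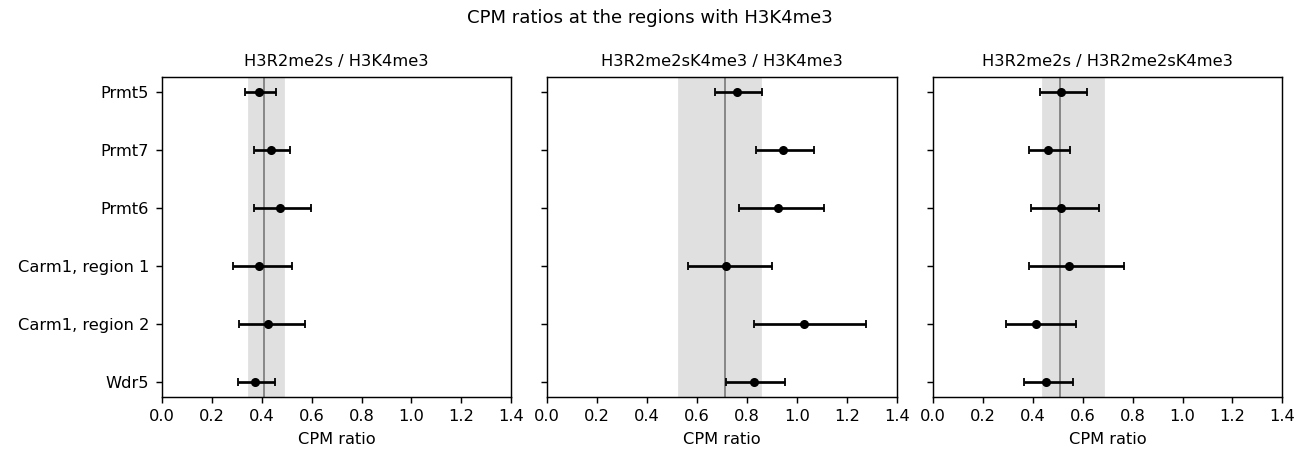
CPM ratio between pairs of marks at the regions with H3K4me3 in the 5 windows (points) with exact 95% intervals (bars). The grey band spans the quartiles over the genome's regions with an H3K4me3 bin and at least 30 reads in both libraries together and the grey line is the median; the H3R2me2s to H3K4me3 ratios from 0.375 to 0.474 all sit in the band.

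As a description of likeness, the region elsewhere in the genome with the nearest log2 CPM in all 3 libraries was found for each main region. It was chr2:90513001-90522000 for Prmt5, chr19:5910001-5916000 for Prmt7, chr11:115336001-115339000 for Prmt6, chr17:46633001-46635000 for Carm1 and chr7:148658001-148664000 for Wdr5. The distance over the 3 libraries was between 0.015 and 0.050 on the log2 scale. Genes at those regions were not analysed here.

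At 100 bp resolution, both arginine-2 signals were lower where H3K4me3 dipped inside each main region than at the H3K4me3 summits on either side. The summits were found on H3K4me3 alone, as the highest 100 bp bin and the highest one at least 500 bp from it, and the trough is the 300 bp between them with fewest H3K4me3 reads. The rule gives any region a pair of summits and a trough, so only the reads of the other 2 libraries, which took no part in the choice, add to it. All values that follow are reads in 300 bp.

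At Prmt7 the summits stood 1300 bp apart. H3K4me3 had 158 and 168 reads at the summits and 11 in the trough. The combined mark had 83 and 95 reads at the summits and 2 in the trough, and H3R2me2s had 35 and 39 reads at the summits and 1 in the trough. Both sides were of like height in each library.

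At Prmt5 the summits stood 1000 bp apart and were unequal in every library. H3K4me3 had 198 and 138 reads there with 6 in the trough, and the combined mark had 103 and 45 with 2 in the trough. H3R2me2s had 50 and 20 reads with 7 in the trough, the highest H3R2me2s count of the 5 troughs. The exact intervals of the 20 and the 7 reads overlapped.

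Wdr5, with summits 900 bp apart, had 136 and 93 reads of H3K4me3, 60 and 49 of the combined mark, and 27 and 26 of H3R2me2s. Its trough held 2, 2 and 0 reads in the same order. Carm1, with summits 1700 bp apart, had 86 and 31 reads of H3K4me3, 32 and 11 of the combined mark, and 15 and 7 of H3R2me2s, and its trough held 0 reads in all 3 libraries. The exact interval for a count of 0 reaches 3.69 reads, and that for 7 reads starts at 2.81. For H3R2me2s at Carm1, the second summit and the trough were thus not separated.

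Prmt6 had summits 1600 bp apart with 72 and 41 reads of H3K4me3, 45 and 21 of the combined mark, and 15 and 7 of H3R2me2s. Its trough held 3, 1 and 3 reads, so that for H3R2me2s the second summit and the trough were not separated at this depth. H3R2me2s also had 6, 7 and 9 reads in the 100 bp bins at 600, 700 and 800 bp from the highest summit of Prmt6. The combined mark had 5, 9 and 7 reads in those bins and H3K4me3 had 6, 18 and 8. Whether reads can be mapped uniquely in the troughs was not tested.

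Over the 5 genes the troughs held 11 H3R2me2s reads (5.49 to 19.7), against 142 at the highest summits, or 7.75%. The combined mark had 7 reads against 323, or 2.17%, and H3K4me3 had 22 against 650, or 3.38%. Background would place 3.53, 2.79 and 4.47 reads there. With reads moved 150 bp in place of 75 bp, the trough held 12.1% of the summit's combined-mark reads and 14.7% of its H3K4me3 reads, so its depth depends on where reads are placed.

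**Figure D3:**
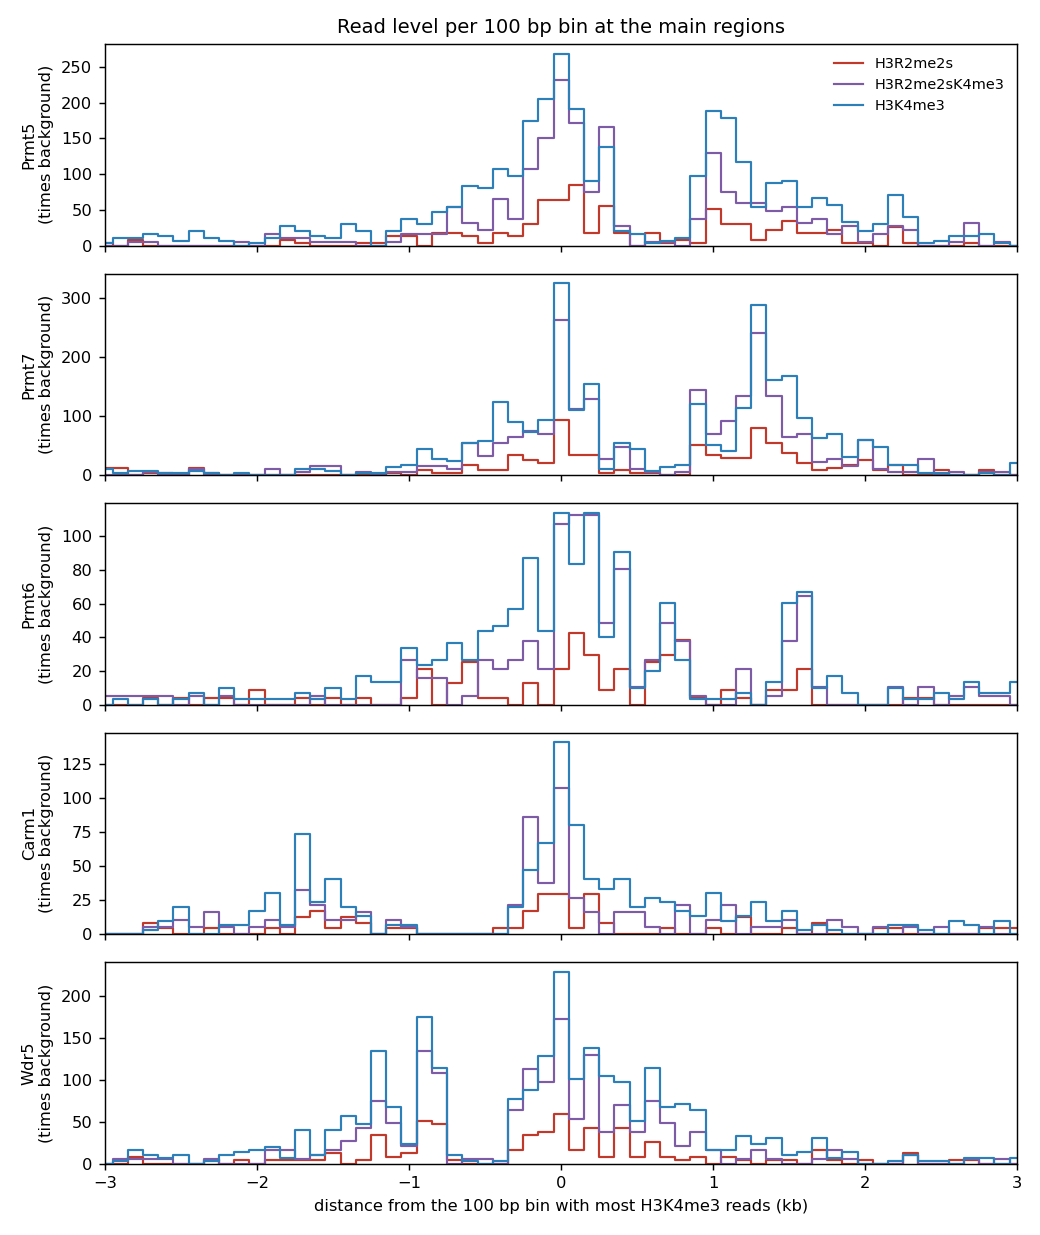
Level of each mark per 100 bp bin, as a multiple of background, against the distance in kb from the 100 bp bin with most H3K4me3 reads, at the main region of each gene; colours are the 3 libraries. The second summit lies between 900 and 1700 bp from the first. At Prmt6 all 3 lines rise again at 600 to 800 bp, with H3K4me3 and the combined mark under their summits.

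H3R2me2s and H3K4me3 had the same highest 100 bp bin at Prmt7 and Wdr5, and bins 100 bp apart at Prmt5 and Prmt6. At Carm1, 3 bins tied for H3R2me2s with 7 reads each, 1 of them the highest H3K4me3 bin. These positions rest on 7 to 22 H3R2me2s reads. With reads not moved, the highest H3R2me2s bin lay 1300 bp from that of H3K4me3 at Prmt7, 900 bp away at Wdr5 and 600 bp away at Prmt6, so these positions depend on where reads are placed.

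In the rest of the Prmt7 window, both arginine-2 libraries had reads where the H3K4me3 library had few. The stretch at chr8:108760001-108762000 held 37 H3R2me2s reads (26.1 to 51.0), 29 combined-mark reads (19.4 to 41.6) and 7 H3K4me3 reads (2.81 to 14.4), or 7.86, 7.79 and 1.18 times background. The CPM ratio to H3K4me3 was 10.6 for H3R2me2s (4.67 to 28.2) and 8.08 for the combined mark (3.46 to 21.8). H3R2me2s over the combined mark stood at 1.31 (0.786 to 2.21). Reads lay on both strands, 16 forward and 21 reverse for H3R2me2s, and the 37 reads fell on 35 distinct combinations of position and strand. Whether the reads at this stretch, and in the clusters described next, came from chromatin with the mark or from other DNA in these 2 preparations was not tested, so their levels and ratios describe reads only.

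It was not the only such place. A bin at chr8:108765001-108766000 held 18, 17 and 2 reads in the same order, and a bin at chr8:108775001-108776000 held 21, 16 and 1. The H3R2me2s to H3K4me3 ratios were 18.1 (4.33 to 160.6) and 42.2 (6.78 to 1743), with wide intervals from the few H3K4me3 reads. Both bins were enriched for H3R2me2s and for the combined mark.

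Looked at read by read, many of these reads lay in short clusters. After these bins had been seen, runs of overlapping reads of both arginine-2 libraries together, with 6 reads or more and away from H3K4me3-enriched bins, were listed in each window. The Prmt7 window held 12 such clusters, spread over 31.7 kb. The Prmt5 window held 1, with 4 H3R2me2s reads, 3 combined-mark reads and 7 H3K4me3 reads, and the windows of Prmt6, Carm1 and Wdr5 held 0. The Prmt7 clusters were 92 to 226 bp wide, with a median of 129 bp, and covered 1692 bp in all. They held 103 H3R2me2s reads (84.1 to 125), 91 combined-mark reads (73.3 to 112) and 7 H3K4me3 reads (2.81 to 14.4), and 8 of the 12 had no H3K4me3 read. Background for H3K4me3 was 2.98 reads per 1 kb, so few reads would fall in 1692 bp without any enrichment. The number of clusters that background would leave empty was not computed, so empty clusters are not read as depletion. Every one of the 12 held reads of both arginine-2 libraries. Clusters of this kind were not rare, with 16266 over the genome, of which 11859 had 2 H3K4me3 reads or fewer.

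The known stretch on chromosome 8 was a pair of these clusters. The first, chr8:108760692-108760917, held 16, 15 and 2 reads in the same order. The second, chr8:108761126-108761286, held 16, 9 and 0. Next in reads came chr8:108765086-108765215, with 10, 14 and 0, and chr8:108775378-108775557, with 12, 11 and 1. Over all 12 clusters H3R2me2s over the combined mark stood at a CPM ratio of 1.17 (0.870 to 1.56), where the main region of Prmt7 had 0.461 (0.385 to 0.551). Scaled to each library's background, the ratio was 1.01 at the known stretch and 0.354 at the main region. The stretch thus stood at like multiples of background in both libraries. A CPM ratio above 1 there does not show more H3R2me2s than combined mark. Clusters were chosen on the reads of these 2 libraries, which fixes in part that H3K4me3 is lower there, and the ratio to H3K4me3, 29.5 for H3R2me2s (13.8 to 75.3), is a description.

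Between the clusters H3R2me2s and H3K4me3 were at like levels. In the 45852 bp of the Prmt7 window away from H3K4me3 and from the clusters, H3R2me2s stood at 1.80 times background (1.55 to 2.07), H3K4me3 at 1.77 (1.56 to 2.01) and the combined mark at 1.43 (1.19 to 1.71). In whole bins away from the H3K4me3 regions, with clusters kept, H3R2me2s stood at 2.64 times background for Prmt7 (2.35 to 2.95). Counted the same way it was 1.81 for Prmt5 (1.47 to 2.22), 1.12 for Prmt6 (0.790 to 1.55), 1.72 for Carm1 (1.48 to 1.99) and 1.86 for Wdr5 (1.55 to 2.21). H3K4me3 there stood at 1.74 for Prmt7, 2.62 for Prmt5, 1.41 for Prmt6, 1.32 for Carm1 and 1.96 for Wdr5.

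**Figure D4:**
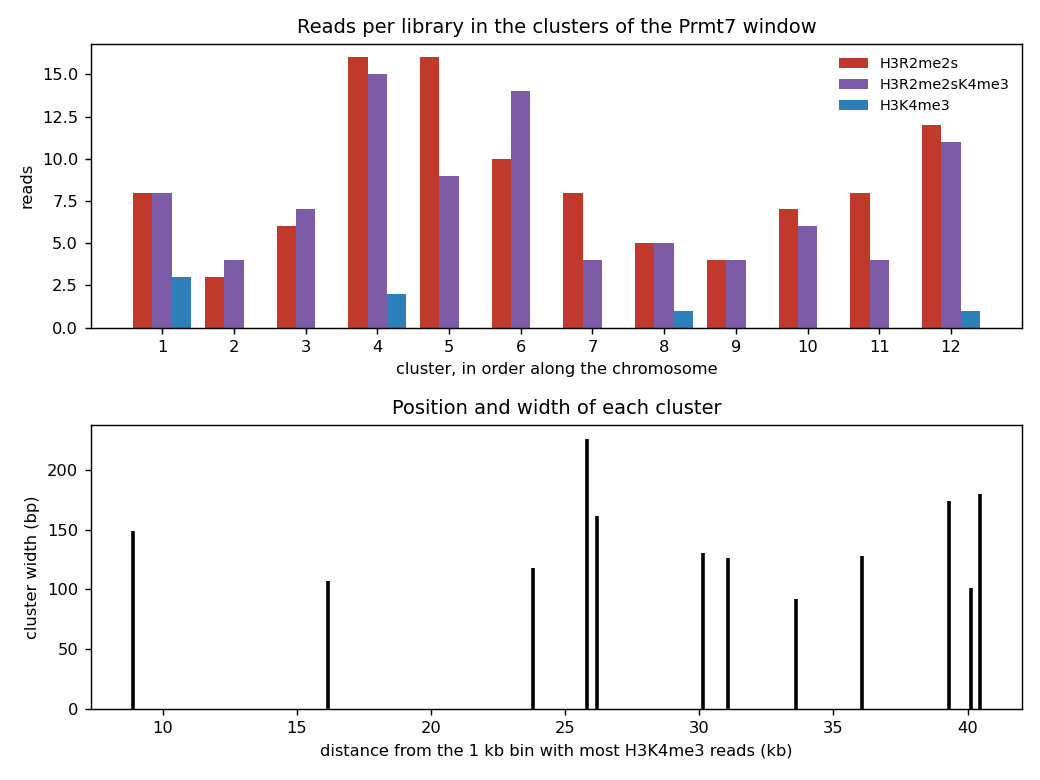
Upper panel, reads per library (bars) in each of the 12 clusters of the Prmt7 window, numbered along the chromosome. Lower panel, width of each cluster in bp against its distance in kb from the 1 kb bin with most H3K4me3 reads; both arginine-2 libraries have reads in every cluster, H3K4me3 has 3 reads or fewer in each, and no cluster is wider than 226 bp.

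No other 50 kb tile of the genome had as many of these clusters. Tiles were cut from the start of each chromosome and 50716 held reads, and clusters with 2 H3K4me3 reads or fewer were counted in each, a comparison made after the clusters had been seen. The tile chr8:108750001-108800000, which holds most of the Prmt7 clusters, had 11, and the next highest count was 7. In all, 8514 tiles held 1 or more, 2358 held 2 or more and 196 held 4 or more. With clusters of 10 reads or more, the tile with the Prmt7 clusters had 9, the next tile had 3 (chr2:22400001-22450000), and 6 tiles had 2 or more. The pair of clusters at the known stretch counts in both the 11 and the 9. That stretch was chosen for its values, so the rank of this tile draws in part on the choice. The clusters were compared with no exon, repeat or other annotation, since none for mm9 was used, and what they stand for was not tested.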

How the data were processed

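ChIP-seq reads of 3 libraries were analysed, 1 per antibody. Per the labels' protocols, sonicated chromatin was amplified with 15 PCR cycles and fragments of 100 to 500 bp were kept for sequencing. The build was mm9, per the submitters' processing notes. Neither the aligner nor its treatment of repeats and duplicates is given in the sources used here. In the deposited files each line is a placed read of 39 bases, and the read counts per bin were made from them without any scaling. Unmappable sequence shows as low counts, and a second copy of a sequence could add reads.

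Reads were moved 75 bp in the 3-prime direction and counted in bins of 1 kb and 100 bp (Python 3.11.15, NumPy 2.4.6, SciPy 1.17.1). A bin was enriched if it reached 4 times the mean of the 2285014 bins with a read and had a Poisson tail probability under 1e-06, which gave limits of 15, 16 and 25 reads. Bins enriched in any library and no more than 1 kb apart formed a region, of which there were 19747; the main region of a gene is the one with most H3K4me3 reads in its window. Background is the average over bins farther than 5 kb from every enriched bin. Repeated reads (same position and strand) made up 5.22%, 2.64% and 6.20% of the libraries. Genome summaries of ratios used regions with an H3K4me3 bin and 30 reads or more. Likeness was the Euclidean distance of log2 CPM with a pseudocount of 0.5. All 5 genes and every region in their windows are named. The members, the windows, the calling rule and the lists were chosen with earlier results of these data known; summits, troughs and clusters were defined after looking at the profiles. The calling rule, the ratio intervals and the cluster search were tested on simulated data. The simulated clusters held more reads than the limit of 6, so recovery at that limit was not tested. Alternatives were the read shift, repeated reads, the calling limit, bin placement, depth and scaling. Other genes of the pathway and cell markers were not analysed here, because they need an mm9 annotation.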

Additional observations from a re-analysis of the deposited data

How the results depend on the processing

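Of 353 values recomputed under 11 settings, 288 stayed within their counting interval (or within 1.5 times for counts and 100 bp for positions) and 65 moved more. Scaled to background, the ratio summed over the 5 main regions was 0.258 for H3R2me2s to H3K4me3, 0.690 for the combined mark to H3K4me3 and 0.374 for H3R2me2s to the combined mark. Over whole gene windows, which also take in the Prmt7 clusters and the second Carm1 region, the same ratios were 0.684, 0.931 and 0.734. The 22 of 135 single-gene ratios that moved did so under those 2 settings. With reads not moved, the trough was 5.81% of the highest summit for the combined mark and 5.42% for H3K4me3, and with reads moved 150 bp it was 12.1% and 14.7%; the H3R2me2s value stayed within its interval. Levels moved in 23 of 105 values and positions of highest bins in 10 of 30. Levels were recomputed on the region as called under each setting, whose width can change with it. How much of each move came from this was not tested. Enriched bins in the windows numbered 12 to 18 (H3R2me2s), 16 to 24 (combined mark) and 19 to 29 (H3K4me3). The chromosome 8 ratio stayed between 6.69 and 10.9 for H3R2me2s to H3K4me3. The Prmt7 clusters numbered 12 with repeated reads removed and 10 at 10 reads or more. The settings for clusters and troughs were chosen after seeing the data. No paired analysis was possible because every antibody stands for a single library, which also means that leaving 1 out gives no value. Differences at single 1 kb bins with under 30 H3R2me2s reads are limited by depth.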
